A study of Oryza sativa Japonica Group with 12 samples.

Results

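The unmodified rice leaf at mid-morning was described from 4 libraries of the 12 in the series, those labelled WT and numbered replicates 1 to 4. All 4 were leaf samples of the japonica cultivar Nipponbare, which carried no transgene, were grown in the field and were taken at 10 in the morning. They were chosen by their labels alone, with no measured value used, and the 8 libraries of the transgenic lines were not compared with them. Plant age, leaf position and the number of plants per sample are not given in the labels. Nothing in the labels says that the replicates were separate plants, so the spread given here is that between samples and may be technical. RNA abundance was measured by sequencing, and the deposited values are whole-number read counts for 38978 annotated rows. Levels are given as CPM, counts scaled to a common library total, which are not divided by gene length.

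Genes of a green leaf cell lie in the nucleus, the plastids and the mitochondria. The nucleus encodes most proteins of photosynthesis, including the antenna proteins, the small subunit of Rubisco and the enzymes of carbon and nitrogen assimilation. The plastid genome encodes the cores of both photosystems, of the cytochrome b6f complex, of the ATP synthase and of an NADH dehydrogenase-like complex (NDH), with its own RNA polymerase and ribosomal proteins. The mitochondrial genome encodes core subunits of respiration, some proteins that mature cytochrome c and some ribosomal proteins.

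The table listed 37849 nuclear loci, 1017 non-coding RNAs and 112 organelle genes. The organelle genes carry symbols, whereas the nuclear rows carry a locus ID alone. The gene table used for names (RefSeq assembly ASM3414082v1) held 1 of the 38866 nuclear and non-coding IDs, and that one without a gene name. Nuclear genes of light harvesting, the Calvin cycle, nitrogen use, the clock, hormones and stress are therefore described only as part of the nuclear rows, and the leaf label could not be set against nuclear marker genes. Of the genes that mark a green tissue, those of the plastid genome listed in the table could be looked up. psaC and psbB, for subunits of photosystems I and II, held the most counts of all organelle genes, whereas psaA and psbA had 8 each in all and psaB, psbC, psbD, petB and petD had 0.

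The WT libraries held 16173596, 19822636, 16983405 and 15465403 counts in replicates 1 to 4. Nuclear loci took 99.988 ± 0.00144% of them (SD, n = 4), non-coding RNA rows 0.00613 ± 0.000561% and organelle genes 0.0059 ± 0.000917%. In a bulk leaf sample, fewer cells of a type and less RNA per cell cannot be told apart. The sample titles name total RNA. Whether messenger RNA was selected from it before sequencing is not stated, and the part of such selection in the organelle share was not tested. A gene with 0 counts may still have been present at up to 3 counts, which correspond to 0.163 to 0.188 CPM in a single library. That limit covers counting error only.

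Plastid genes held more counts than mitochondrial genes in each WT library, and most of the plastid counts came from a single gene. The 46 genes whose symbol occurs only in the plastid held 39.3, 37.5, 43.2 and 35.8 CPM in replicates 1 to 4, or 66.5% of all organelle counts. The 46 mitochondrial genes held 19.5, 9.21, 13.3 and 16.5 CPM, or 24.9%. The plastid sum varied less between libraries than the mitochondrial sum, which was highest in replicate 1 and lowest in replicate 2. Without psaC the plastid genes had 938 counts over the 4 libraries together, against 993 of the mitochondrial genes, from which no gene was left out. The order without psaC differed between libraries. Plastid genes remained ahead in replicates 2 and 3 and fell behind in replicates 1 and 4. In replicate 2, for example, 449 of the 693 plastid counts were psaC, against 170 mitochondrial counts. In replicate 1 it was 475 of 691, against 342. A further 17 genes have symbols found in both organelles, and 3 have symbols the RefSeq table lacks.

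psaC, for the iron-sulfur subunit that passes electrons out of photosystem I, held 475, 449, 437 and 358 counts in replicates 1 to 4, or 27.0, 24.3, 26.9 and 22.4 CPM. Its mean was 25.2 ± 2.20 CPM (SD, n = 4), with a coefficient of variation of 8.73%, the smallest among the 12 organelle genes abundant enough to pass the filter on low counts. Counting alone would give psaC 4.83%, and more for genes with fewer counts, such as 18.4% for rps16. The rank therefore does not make psaC the steadiest gene. This gene alone made up 43.0% of the organelle counts over the 4 libraries, and 37.4 to 48.3% in single libraries. psbB, for the chlorophyll-binding core antenna CP47 of photosystem II, held 101, 151, 163 and 151 counts, or 5.74, 8.18, 10.02 and 9.47 CPM. Replicate 1 was the lowest library for psbB and the highest for psaC.

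Other genes of the photosystem cores had few counts or none. A low count does not show that an organelle gene was silent in the leaf. The parts that selection of messenger RNA and assignment of reads to genes had in these counts were not tested. psaA, for a core protein that carries the reaction centre of photosystem I, had 2, 3, 2 and 1 counts in replicates 1 to 4. psbA, for the D1 protein of photosystem II, had 1, 3, 2 and 2 counts. psbK, for a small subunit of photosystem II, had 4 counts in replicate 3 and none elsewhere. In all, 1 of the 3 photosystem I genes in the table and 9 of the 12 photosystem II genes had no count in any WT library. Among those at 0 were psaB, psbC and psbD, for further reaction centre and core antenna proteins, which are named here after their values were seen.

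**Figure D1:**
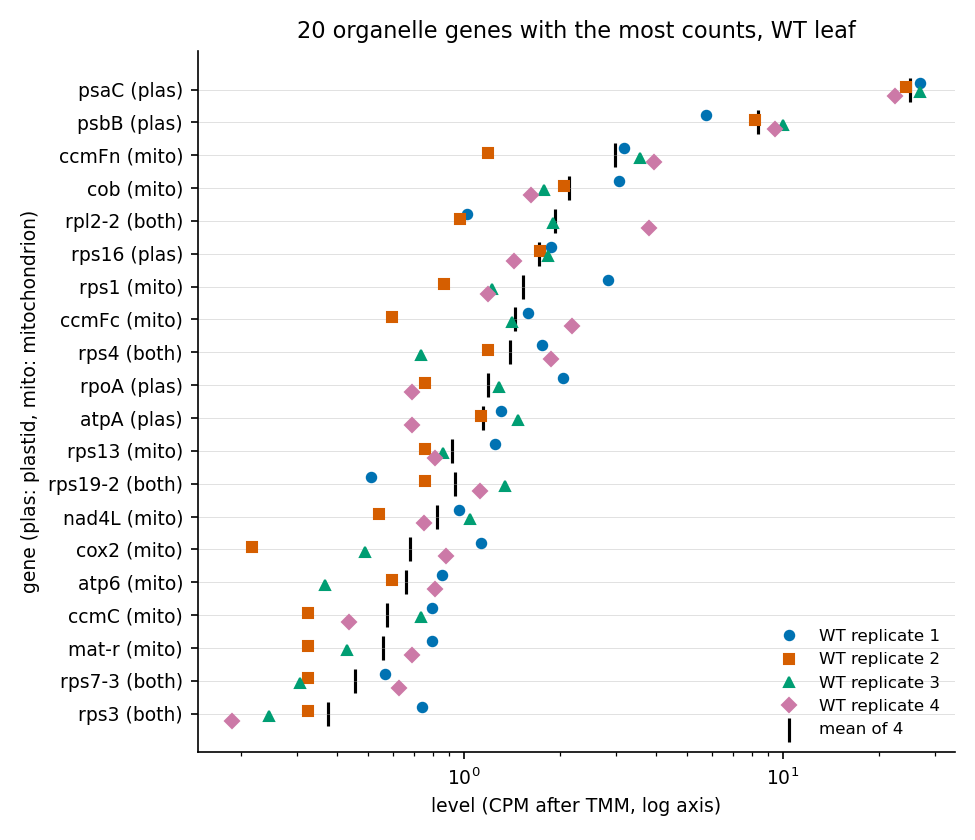
Levels of the 20 organelle genes with the most counts in the 4 WT libraries, in CPM after TMM scaling on a log axis; each point is 1 library and the black tick is the mean of 4. psaC stands alone near 25.2 CPM and psbB near 8.35 CPM, and the means of the remaining genes are 2.97 CPM or less.

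The remaining plastid complexes were low in the counts. Of 4 ATP synthase genes, atpA, for a catalytic-head subunit, had 23, 21, 24 and 11 counts in replicates 1 to 4, atpI, for a membrane subunit, had 6, 8, 3 and 2, and 2 genes had none. Of the 3 cytochrome b6f genes, petA, for cytochrome f, had 1 count in all and the other two had 0. Of 7 NDH genes, 5 had counts, led by ndhF with 5, 4, 8 and 3, and no NDH gene passed the filter. rpoA, for the alpha subunit of the plastid RNA polymerase, held 2.05, 0.758, 1.29 and 0.69 CPM, whereas rpoB and rpoC2 had 3 and 2 counts in all and rpoC1 had 0. The gene for the large subunit of Rubisco and some other plastid genes were not analysed here, so plastid sums and shares cover the listed genes alone. The plastid counts thus sat in a few genes, with psaC and psbB holding 51.7 to 64.5% of all organelle counts in single libraries.

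Genes that lie beside psaC and psbB in the plastid genome did not share their counts. This was looked at after the values were seen, with the gene order of the RefSeq table. psaC, with 1719 counts over the 4 libraries, lies between ndhD with 12 and ndhE with 6. Next to ndhE, ndhG had 4 counts. psbB, with 566 counts, is followed along the genome by psbN, psbH and petB, all with 0 counts, after psbT, which was not analysed here. These are counts per gene and are not divided by length.

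Mitochondrial genes of cytochrome c maturation were all present. These proteins take part in the pathway that attaches heme to cytochromes c, and the 4 genes ccmFn, ccmFc, ccmC and ccmB had counts in all 4 WT libraries. ccmFn held 3.19, 1.19, 3.57 and 3.95 CPM in replicates 1 to 4 and ccmFc 1.59, 0.596, 1.41 and 2.19 CPM. In both genes replicate 2 was the lowest library, on 22 and 11 counts. Their summed level over the 4 genes was 6.26, 2.17, 6.03 and 6.71 CPM, so that 3 libraries lay close together and replicate 2 lay apart below them.

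Respiratory chain genes were mostly scarce in the counts. cob, for cytochrome b of complex III, held 3.07, 2.06, 1.78 and 1.63 CPM in replicates 1 to 4, with replicate 1 highest. cox2, for a subunit of cytochrome oxidase, had 20, 4, 8 and 14 counts, cox3 had 3 in all and cox1 had 0. Of 9 complex I genes, nad4L had 17, 10, 17 and 12 counts, nad9 and nad7 had 2 and 1 in all, both from replicate 1, and 6 had none. Of 3 mitochondrial ATP synthase genes, atp6 had 15, 11, 6 and 13 counts, atp9 had 3, 7, 0 and 6, and the remaining one had 0. mat-r, for a maturase that acts in intron splicing, had 14, 6, 7 and 11 counts.

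Ribosomal protein genes showed the same pattern of a few with counts among many with none. Of 33 such rows 10 had counts, 8 of them in all 4 libraries. rpl2-2 held 1.02, 0.975, 1.91 and 3.82 CPM in replicates 1 to 4, with replicate 4 far above the rest on 61 counts. Its symbol occurs in both organelles, and the other row of that symbol, rpl2, had 0 counts in every WT library. How the authors' counting treated reads of near-identical copies was not tested. rps16, a plastid gene, held 1.88, 1.73, 1.84 and 1.44 CPM, with a coefficient of variation of 11.5%. rps1, a mitochondrial gene, held 2.84, 0.867, 1.23 and 1.19 CPM, with replicate 1 above the others. Of 22 open reading frames of unassigned role 10 had counts, led by orf288 with 4, 5, 3 and 11. Over all 112 organelle rows, 63 were at 0 throughout, and 32 had counts in all 4.

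At the nuclear rows, a small part of the loci took most of the counts. The 10 most abundant rows of each library took 12.1 ± 0.412% of its counts (SD, n = 4), the 100 most abundant 30.7 ± 1.63% and the 1000 most abundant 59.7 ± 2.20%. It took 601, 413, 440 and 552 rows to reach 50% of the counts in replicates 1 to 4, so counts were more concentrated in replicates 2 and 3 than in replicates 1 and 4. Rows with a mean of at least 10 CPM numbered 10833, those of at least 100 CPM 1534, those of at least 1000 CPM 111 and those of at least 10000 CPM 4. Among the 18112 rows that passed the filter on low counts, the median level was 14.6 CPM, and 10% lay above 86.3 CPM.

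The most abundant rows were Os11g0707000 and Os01g0200700, which the files do not pair with a name. Os11g0707000 held 42250, 37766, 32002 and 25202 CPM in replicates 1 to 4, and ranked 1, 1, 1 and 2 in them. Os01g0200700 held 16131, 21176, 21959 and 25672 CPM, and ranked 2, 2, 2 and 1. The order of the pair was reversed in replicate 4, where they lay close together, and was widest in replicate 1. Of the 10 most abundant rows of each library, 4 were shared by all 4 libraries and 19 appeared in at least 1. Of the 100 most abundant, 73 were shared by all 4, and a further 11 were shared by replicates 2, 3 and 4 and missing from replicate 1, against 6, 1 and 2 missing only from replicates 2, 3 and 4.

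Most rows were on in all 4 libraries or in none, but some changed sides between libraries. At least 1 CPM was reached in all 4 libraries by 16992 rows, 43.6% of the table. It was reached in 1 to 3 libraries by 2435, of which 891 reached it in only 1. No count at all was found in 12049 rows, or 30.9%, and 7502 more had counts but stayed under 1 CPM throughout. Single libraries had 17991, 18260, 18165 and 18410 rows at 1 CPM or more in replicates 1 to 4. Loci silent in a single library were few. Rows with 0 counts in that library and at least 10 in each of the others numbered 11, 1, 3 and 0 for replicates 1 to 4, and the opposite pattern was found in 2, 2, 1 and 1 rows. Of the 1017 non-coding RNA rows 835 had no count, 58 had counts in every library, and a single row held 25.9% of their counts.

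Chromosomes, read from the number in the locus IDs, differed in the share of their loci that were on. On chromosome 3, 53.5 ± 0.391% of 4548 loci were at 1 CPM or more (SD, n = 4), and on chromosome 2 51.8 ± 0.376% of 4215. Chromosome 11, with 2423 loci, had 41.7 ± 0.41% and chromosome 10, with 2112, had 43.2 ± 0.484%. The range on chromosome 3 was 53.0 to 53.9% and that on chromosome 11 41.4 to 42.3%. These chromosomes were picked as the highest and lowest. At least 1 CPM in all 4 libraries was reached by 50.3% of loci on chromosome 3 and 38.3% on chromosome 11. Over all rows of the table, non-coding RNA and organelle rows included, it was 43.6%. Of the nuclear loci alone, 16982 of 37849 reached it. The 4 libraries measure the same loci, so these SDs and ranges do not cover variation between loci, and the difference was not tested. Loci without any count made up 25.0% of chromosome 3 and 34.3% of chromosome 11. Chromosome 11 nevertheless held 9.75, 8.79, 8.29 and 7.63% of the counts in replicates 1 to 4 with 6.40% of the loci, and its locus Os11g0707000 alone held 4.59, 3.52, 3.06 and 2.60% of all counts.

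**Figure D2:**
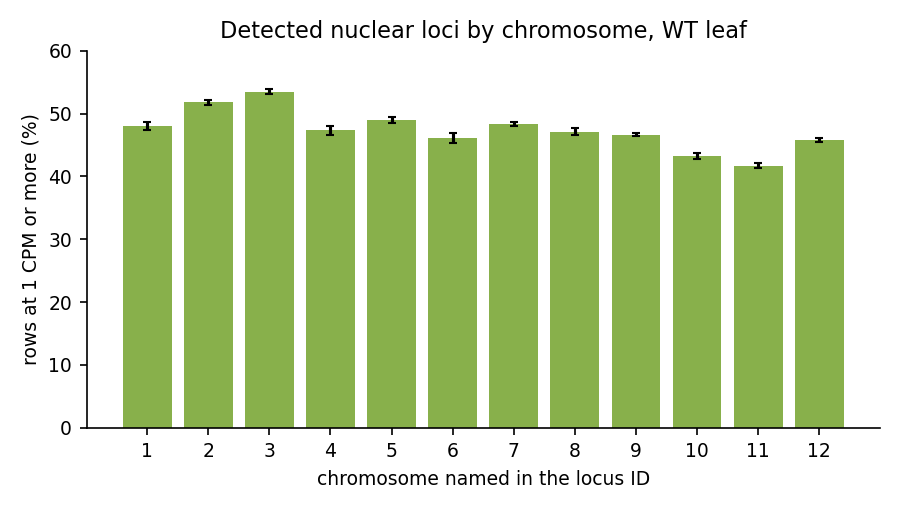
Share of nuclear loci at 1 CPM or more by the chromosome in the locus ID, in percent; bars are the mean of the 4 WT libraries and error bars the SD. Chromosome 3 is highest at 53.5% and chromosome 11 lowest at 41.7%, with SDs under 1 percentage point.

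Replicates varied by a common biological coefficient of variation of 24.3% (edgeR), the part of the spread that counting does not account for. It was 19.0% without replicate 1, and 25.4, 27.6 and 24.6% without replicates 2, 3 and 4. The median coefficient of variation of levels was 25.9% for rows with a mean of 1 to 10 CPM, 15.6% at 10 to 100 CPM, 15.7% at 100 to 1000 CPM and 21.3% for the 111 rows over 1000 CPM. The median was thus larger for the most abundant rows than for those of middle abundance. On log2(CPM + 1), a typical row of the 18112 spanned 1.45-fold from its lowest to its highest library, and 1.26-fold over replicates 2 to 4. A span past 2-fold was found in 2676 rows over the 4 libraries and in 801 over replicates 2 to 4. Among the 100 most abundant rows these numbers were 26 and 4.

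Replicate 1 stood apart. On the first principal component, which took up 57.2% of the variance of log2(CPM + 1), replicate 1 scored 51.5 and replicates 2, 3 and 4 scored -16.9, -16.6 and -18.0. On the second, with 31.2%, replicate 2 scored -29.0 and replicate 4 scored 32.7, with replicate 3 at -4.26 and replicate 1 at 0.565. Across rows, which are not independent, the Spearman correlation of replicate 1 with the others was 0.951 to 0.958, against 0.967 to 0.985 among replicates 2 to 4.

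**Figure D3:**
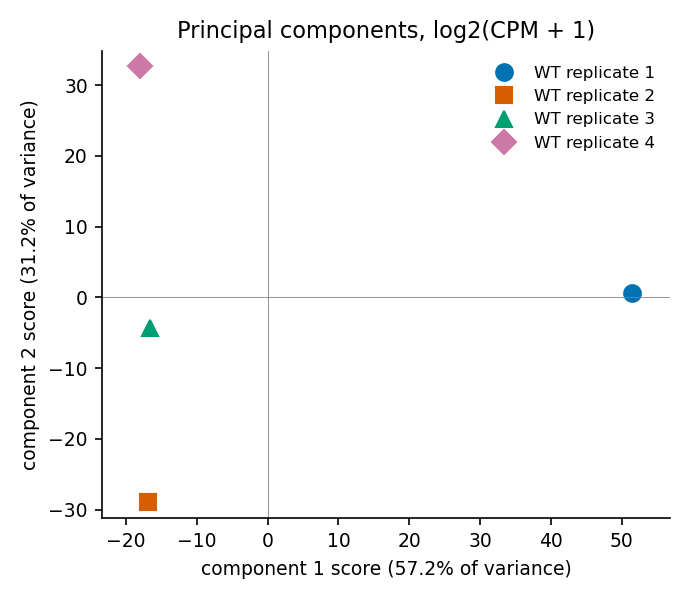
Scores of the 4 WT libraries on the first 2 principal components of log2(CPM + 1) over 18112 rows; each point is 1 library and the axes give the share of variance. Replicate 1 lies at 51.5 on the first component, and replicates 2 and 4 lie at opposite ends of the second.

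Each library was set in turn against the geometric mean of the other 3 on log2(CPM + 1), which gives no test and understates the change of low rows. In replicate 1, 109 rows were more than 2-fold higher (0.602% of rows) and 931 more than 2-fold lower (5.14%). In replicate 2, 113 were higher (0.624%) and 155 lower (0.856%). In replicate 3, 30 were higher (0.166%) and 25 lower (0.138%). In replicate 4, 354 were higher (1.95%) and 42 lower (0.232%). These counts depend on which libraries form the comparison. Without replicate 2 replicate 3 had 256 rows past 2-fold, and 176 without replicate 4, against 55 with all 4. Without replicate 3 replicate 2 had 550, against 268, and replicate 4 had 636, against 396. With all 4 libraries, both directions together came to 5.74% of rows in replicate 1, 1.48% in replicate 2, 0.304% in replicate 3 and 2.19% in replicate 4. Among rows past 2-fold, the departure of replicate 1 was mainly downward and that of replicate 4 mainly upward. Over all filtered rows the median log2 difference was -0.0019 in replicate 1 and 0.0029 in replicate 4. Replicate 1 was the lowest library in 34.4% of rows and the highest in 33.1%. TMM scaling brings the bulk of rows in each library close to that in the others. These medians and shares therefore cannot show whether a library leaned up or down as a whole. In absolute size, the median row differed from the other 3 by 0.29 on the log2 scale in replicate 1, 0.20 in replicate 2, 0.16 in replicate 3 and 0.21 in replicate 4. In replicate 1 the share past 2-fold was 5.85% of rows at 1 to 10 CPM, 5.55% at 10 to 100 CPM, 6.96% at 100 to 1000 CPM and 10.8% over 1000 CPM, where 12 of 111 rows were lower and 0 higher. In replicate 4 the share was 2.96% at 1 to 10 CPM and 0% over 1000 CPM.

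**Figure D4:**
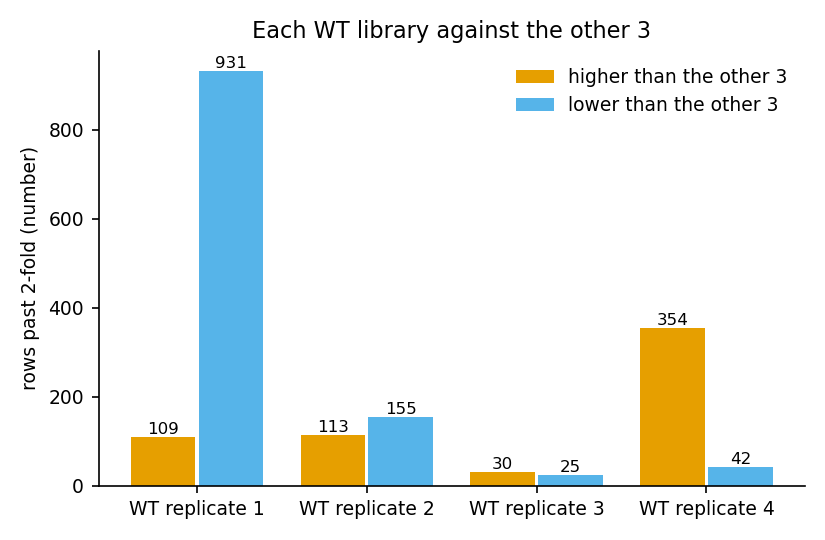
Number of rows, of 18112, that were more than 2-fold higher or lower in each WT library than the geometric mean of the other 3. Replicate 1 has 931 lower rows against 109 higher ones, and replicate 4 has 354 higher against 42 lower.

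The rows named here were picked as the 2 lowest and 2 highest in replicate 1, so they do not stand for the remaining rows past 2-fold. Os01g0884700 held 6.31 CPM in replicate 1, against 60.9, 62.7 and 49.6 CPM in replicates 2, 3 and 4, a log2 difference of -3.00. Os08g0174100 held 19.6 CPM in replicate 1, against 179, 156.3 and 137.9 CPM, a log2 difference of -2.94. In both rows replicates 2 to 4 lay close together. Os07g0147500 held 116 CPM in replicate 1, against 21.3, 10.9 and 84.4 CPM in replicates 2, 3 and 4. Os04g0429600 held 19.5 CPM in replicate 1, against 1.52, 3.87 and 19.3 CPM. For this pair replicate 4 was also high, and replicates 2 and 3 were low. The files pair none of these 4 IDs with a name.

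Some loci that departed together lay side by side along the chromosomes. Of the 931 rows lower in replicate 1, 14.9% had a neighbour in ID order, among filtered loci, that was lower as well, against 9.97% of all 18089 nuclear rows with such a neighbour. Of the 353 nuclear rows higher in replicate 4 the share was 18.4%, against 3.86%, and of the 153 lower in replicate 2 it was 17.6%, against 1.68%. The smaller sets had few such rows. They numbered 0 of 109 higher in replicate 1 (1.20% of all nuclear rows had such a neighbour), 4 of 113 higher in replicate 2 (1.25%), 2 of 30 higher in replicate 3 (0.332%), 0 of 25 lower in replicate 3 (0.271%) and 0 of 42 lower in replicate 4 (0.464%). Neighbouring loci can be near-identical or overlapping copies between which reads were divided, and how much this added was not tested.

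Among the organelle genes that passed the filter, none of 12 was past 2-fold in replicate 1, in either direction. That share was 5.74% over all rows, too small for 0 of 12 to set these genes apart. In that library 10 of the 12 lay above the geometric mean of the other 3, with a median log2 difference of 0.18, whereas 49.8% of all rows did. In replicate 2 it was 2 of the 12 (52.5% of all rows), in replicate 3 8 (51.1%) and in replicate 4 5 (50.4%). In replicate 1, psbB and rpl2-2 were the ones below the geometric mean of the other 3, with log2 differences of -0.60 and -0.58. Past 2-fold were ccmFn, lower in replicate 2 (log2 difference -1.06, against 0.856% of all rows lower there), and rpl2-2, higher in replicate 4 (1.09, against 1.95% of all rows higher there). Apart from psaC and psbB, these genes had at most 63 counts in any WT library. Counting alone would give rpl2-2 a coefficient of variation of 17.7%, against 68.9% found, and ccmFn 14.2%, against 41.3%. For rps16 it would give 18.4%, against 11.5%, and for rps13 25.2%, against 24.3%.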

How the data were processed

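Leaf RNA was extracted with Trizol, per the labels' protocols, and sequenced. The authors deposited raw counts per annotated row and library, with no normalization. Which aligner, counter, build and strand setting were used, and whether messenger RNA was selected, is not given in the sources. Because the strand setting is unknown, overlapping and antisense loci cannot be told apart.

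The 4 WT columns were matched to samples by their descriptions. With edgeR 4.0.16 in R 4.3.3, libraries were scaled by TMM, rows kept by filterByExpr (18112 of 38978), and the biological coefficient of variation estimated from the 4 WT libraries alone, with an intercept only. No group was compared with another, so no p-value is given. CPM values use the TMM-scaled totals. Rows more than 2-fold from the geometric mean of the other 3 libraries were counted on log2(CPM + 1). The scripts were tested on simulated data. Chi-square per degree of freedom between pairs of libraries was 15.0 to 66.3, where repeated sequencing of 1 library gives about 1, so no pair is a library deposited again, while separate preparations of the same RNA cannot be told apart from separate plants.

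Organelle genes were assigned by symbol with the RefSeq table (assembly ASM3414082v1) and sorted into lists by function. By the rule for names, up to 4 members with the highest mean per organelle list are given, and of unnamed nuclear rows the 2 most abundant and, among rows with a mean of at least 10 CPM, the 2 highest and 2 lowest in replicate 1. The lists and rules were chosen with earlier results of these data known. Nuclear gene lists set for photosynthesis, carbon, nitrogen, clock, hormone and stress genes and cell type markers had no row paired with a name and were not used. Alternatives were other scalings, filters, pseudocounts and thresholds, and leaving out each library.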

Additional observations from a re-analysis of the deposited data

Results flagged for a closer look

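The summed level of the 4 cytochrome c maturation genes was 6.26, 2.17, 6.03 and 6.71 CPM in WT replicates 1 to 4. Replicate 2 lay far below the rest, with a gap to the nearest library of 0.85 of the whole range. It was the only one of 29 values or gene levels examined in this way that stood so far apart, and chance gives about 1 in 20. Over all 18112 filtered rows, 6.91% had a library that far apart, so 1 of 29 is no more than such a search gives. In replicate 2 the sum rested on 40 counts, and the mitochondrial genes as a whole were also lowest there, at 9.21 CPM against 19.5, 13.3 and 16.5 CPM in replicates 1, 3 and 4.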

How the results depend on the processing

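Of 145 recomputed values, 124 stayed within 1 SD or, for counts of rows, within 1.5 times, including all 70 for single genes and IDs. Leaving out 1 library can hardly move the mean level of a gene by 1 SD. For single genes that limit is therefore no test of stability when a library is left out. Os07g0147500 stayed within it, yet ran from 37.8 CPM without replicate 1 to 75.6 CPM without replicate 3. Rows past 2-fold numbered 1040, 268, 55 and 396 in replicates 1 to 4. With a pseudocount of 5 CPM they numbered 454, 88, 14 and 147, among rows with a mean of at least 10 CPM 628, 155, 28 and 188, and past 4-fold 58, 6, 1 and 25. With a pseudocount of 0.5 CPM replicate 3 had 100. Replicate 1 had the most under each of these settings. Leaving out each other library in turn, replicate 1 had 1039 to 1134, replicate 2 had 283 to 550 (550 without replicate 3), replicate 3 had 46 to 256 (256 without replicate 2 and 176 without replicate 4), and replicate 4 had 398 to 636 (636 without replicate 3). The coefficient of variation ran from 19.0% without replicate 1 to 27.6% without replicate 3. The median level of kept rows ran from 13.7 CPM without replicate 1 to 14.7 CPM without replicate 2, and the 100 most abundant rows took 28.3% of the counts without the single most abundant row. The cause of these shifts was not tested. Rows at 1 CPM or more in every library numbered 17128 to 17372 with a library left out. No paired analysis was possible because a single group was described and no groups were compared. Organelle genes other than psaC and psbB, with at most 63 counts per library, rest on few reads.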
